A study of Homo sapiens with 6 samples.

Results

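The collagen chain genes were taken as all protein-coding genes whose symbol reads COL, a number, A and a number, which gave 44 of the 52408 genes in the count table, of which 20 had enough reads to be tested. Collagens are the main structural proteins of the extracellular matrix. Their chains carry long glycine-rich repeats, wind together into a helix, and are built into fibrils, sheets or filaments according to type. Chains need hydroxylation and folding in the endoplasmic reticulum before export, and crosslinking outside the cell. In healthy liver most fibrillar collagen is made by stellate cells and fibroblasts, while hepatocytes and liver tumour cells contribute basement membrane collagens such as type XVIII. The study compared HepG2 cells, an established human liver cancer line with hepatocyte traits, after 24 h in medium with 50 µM ellagic acid (EA), a polyphenol of fruits and nuts, or with an equal volume of its solvent DMSO. All cells were grown in medium with fetal bovine serum and antibiotics. There were 3 EA libraries and 3 DMSO libraries of RNA sequencing reads. Nothing in the labels says that the libraries of a group came from separate cultures, so p-values speak only for the spread among these samples, part or all of which could be technical.

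Libraries held 15738089 to 19202292 reads on genes with EA and 22987425 to 25973621 with DMSO, of which 7188 to 8271 and 26115 to 28982 fell on the 44 collagen genes. For a gene without reads the upper limit in a library (3 reads, counting error only) is 0.156 to 0.191 CPM (read counts scaled to library size) with EA and 0.116 to 0.131 CPM with DMSO. On the second principal component EA replicate 3 scored -27.03 and the other EA libraries 14.44 and 11.9, and values without this library are given beside COL11A2, COL6A3, COL7A1 and MMP9. All 10 hepatocyte markers listed were read, 1 higher and 9 lower with EA, with a sum of 14590 to 15370 CPM with EA and 51820 to 54670 CPM with DMSO. Beside these and the marker calls that follow, 40.5% of all tested genes were called higher and 40.5% lower. Of 10 fibroblast and stellate cell markers, 4 passed the read filter. ACTA2 and NGFR were higher and PDGFRB and RGS5 lower, DCN had 0 reads in every library, and the list summed to 146 to 222 CPM with EA and 61.6 to 62.4 CPM with DMSO. Most of that sum was NGFR, averaging 135 CPM with EA and 14.2 CPM with DMSO, and ACTA2, averaging 53.7 and 30.6 CPM. Of 7 endothelial markers, 3 passed the filter, VWF and TIE1 higher and CDH5 lower, with EMCN at 0 reads and a sum of 159 to 234 CPM with EA and 5.54 to 5.72 CPM with DMSO. TIE1 alone made up most of this sum, averaging 184 CPM with EA and 3.25 CPM with DMSO. Of 7 blood cell markers, 3 passed, among them CSF1R higher and CD14 lower, with PTPRC, CD68 and CD3E at 0 reads and a sum of 3.13 to 3.81 CPM with EA and 3.13 to 3.39 CPM with DMSO. The part of these marker levels in the collagen results was not tested. In bulk RNA, fewer cells that express a gene and less RNA per cell cannot be told apart.

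Enough reads for a test were found for 20 of the 44 genes. With EA, 11 of the 20 fell, 7 rose and 2 were not called, by edgeR's quasi-likelihood test at a Benjamini-Hochberg adjusted p of 0.05 over all genes. The background was high, since 81.0% of all 15648 genes tested were called, 40.5% higher and 40.5% lower. The members' share of calls, 90.0%, was therefore little above that of genes at large. By size, of the 20, 9 were called and at least 4-fold lower with EA, against 7.08% of all tested genes, and 6 were called and at least 4-fold higher, against 11.3%. Members low in 1 group passed the read filter only through the other, so these counts describe the 20 genes and not the family. The median log2 fold change of the 20 was -1.52, and that of all tested genes was 0. EA and DMSO values did not overlap in 18 of the 20 members, against 82.9% of all tested genes.

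**Figure D1:**
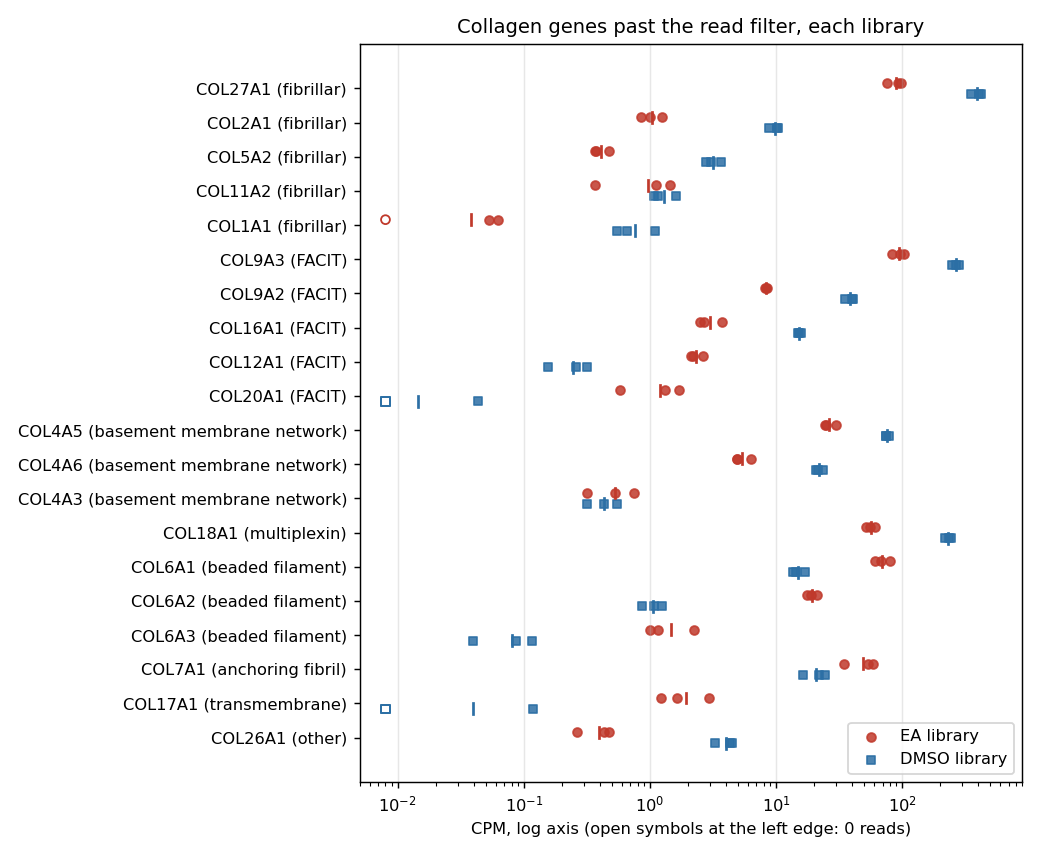
Level of each of the 20 collagen genes past the read filter, in CPM scaled to normalised library size on a log axis, with 1 symbol per library (circles EA, squares DMSO, vertical ticks group means). The groups lie apart in every row except COL11A2 and COL4A3, with COL27A1, COL9A3 and COL18A1 highest in DMSO and the COL6 genes and COL7A1 to the right in EA.

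The fibril-forming collagens were represented by 5 of 11 genes, of which 4 fell and 1 was not called. Beside this and the class counts below stand the shares over all tested genes, 40.5% called higher and 40.5% called lower. COL5A2 and COL1A1, low with EA, passed the read filter through the DMSO libraries. COL27A1 (ENSG00000196739, chromosome 9), which encodes the chain of a fibrillar collagen best known from cartilage, had more reads than any other collagen gene in the DMSO libraries. It was read at 98.0, 93.4 and 76.5 CPM in the EA libraries and at 350, 409 and 424 CPM in the DMSO libraries. Every EA value was well below every DMSO value, and the log2 fold change was -2.14 (SE 0.10, edgeR adjusted p = 5.34e-10). COL2A1, the major collagen of cartilage, stood at 1.25, 1.01 and 0.846 CPM with EA and at 8.88, 10.1 and 10.3 CPM with DMSO, a log2 fold change of -3.25 (SE 0.19, edgeR adjusted p = 2.57e-10). COL5A2, a chain of the type V collagen that sits inside type I fibrils, averaged 0.407 ± 0.0608 CPM with EA and 3.17 ± 0.445 CPM with DMSO (SD, n = 3 each), a log2 fold change of -2.94 (SE 0.27). COL1A1, a chain of type I collagen, had 1, 0 and 1 reads with EA and 14, 15 and 28 with DMSO. As a ratio of scaled reads that is 0.0483, with a 95% exact counting interval of 0.00571 to 0.183, and edgeR's adjusted p was 4.25e-05. COL11A2 was not called. Its values of 1.43, 1.11 and 0.370 CPM with EA and 1.17, 1.09 and 1.61 CPM with DMSO overlapped, and the 95% interval of its log2 fold change, -1.24 to 0.37, leaves room for a fall of more than 2-fold. The estimate of -0.44 was -0.06 without EA replicate 3, its lowest library.

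The other fibrillar genes were below the read filter. COL1A2, which pairs with COL1A1 in type I collagen, had 0 reads in all 6 libraries. COL3A1, the single chain of type III collagen, had 5 reads over the EA libraries and 4 over the DMSO libraries. COL5A1, the usual partner of COL5A2, had 20 reads with EA and 9 with DMSO. COL5A3 had 7 and 3 reads, COL11A1 6 and 1, and COL24A1 15 and 33, each with EA and with DMSO. Of the type I chains, COL1A1 thus had reads, most of them in the DMSO libraries.

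Among collagens that attach to fibrils (FACIT collagens), 5 of 10 genes could be tested, of which 3 fell and 2 rose. COL9A3 (ENSG00000092758, chromosome 20), a chain of the cartilage collagen type IX, stood at 103, 95.7 and 82.9 CPM with EA and at 247, 285 and 267 CPM with DMSO. Its log2 fold change was -1.51 (SE 0.08, edgeR adjusted p = 2.55e-10). COL9A2 encodes another chain of the same molecule and was read at 8.28, 8.11 and 8.46 CPM with EA and at 35.2, 40.4 and 40.6 CPM with DMSO, a log2 fold change of -2.22 (SE 0.10). COL9A1, which supplies the remaining chain, had 3 reads over the EA libraries and 0 over the DMSO libraries. COL16A1, found at the edges of fibrils and microfibrils, averaged 2.97 ± 0.668 CPM with EA and 15.3 ± 0.483 CPM with DMSO (SD, n = 3 each), a log2 fold change of -2.38 (SE 0.15). The gene TCFL5 overlaps COL9A3 on the opposite strand and had 384 to 476 reads with EA and 772 to 913 with DMSO. Reads of overlapping genes cannot be told apart without the strand setting of the counting.

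The other 2 tested FACIT genes rose and were low with DMSO. COL12A1, whose product links fibrils in tissues under tension, had 35, 40 and 50 reads with EA and 4, 6 and 8 with DMSO, or 2.18, 2.12 and 2.64 CPM and 0.156, 0.261 and 0.315 CPM. No EA value reached down to a DMSO value, and the log2 fold change was 3.22 (SE 0.32, edgeR adjusted p = 1.82e-07). COL20A1 had 21, 32 and 11 reads with EA and 0, 1 and 0 with DMSO. The scaled ratio was 88.1 with a 95% exact counting interval of 15.2 to 3530, so its size is hardly fixed by these reads. The fitted log2 fold change of 5.95 (edgeR adjusted p = 4.24e-06) became 7.64 without DMSO replicate 2, the library with the single DMSO read. COL22A1, which marks junctions such as that of muscle and tendon, did not pass the filter. It had 21, 30 and 3 reads with EA and 0 in each DMSO library, which makes it at least 24.8-fold higher with EA against a floor of 3 reads over the DMSO group. COL14A1, COL19A1 and COL21A1 had 0 to 3 reads per library.

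Type IV collagen forms the sheet of basement membranes, and its genes lie in head-to-head pairs. COL4A5 and COL4A6, the pair on chromosome X, were the type IV genes with the most reads in both groups, and both fell. COL4A5 (ENSG00000188153) was read at 29.8, 24.9 and 24.5 CPM with EA and at 74.1, 75.0 and 78.3 CPM with DMSO, a log2 fold change of -1.53 (SE 0.09, edgeR adjusted p = 2.05e-10). COL4A6 (ENSG00000197565) stood at 6.29, 4.93 and 4.86 CPM with EA and at 23.4, 21.6 and 20.9 CPM with DMSO, a log2 fold change of -2.04 (SE 0.12, edgeR adjusted p = 4.59e-10). EA and DMSO libraries were far apart for both genes.

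The starts of COL4A5 and of the nearer of 2 COL4A6 start sites in RefSeq lie 380 bases apart on opposite strands, and their upstream windows share 121 bases. The sequences are shown to let the shared stretch of this pair, both of whose genes fell, be seen. They are the 250 bases before each start, 5′ to 3′ on the gene's strand, from RefSeq on GRCh38.p14, another build than the submitters' hg19. Capitals mark the shared bases, which each gene reads in the opposite sense. COL4A5 occupies chrX:108439588-108439837 on the plus strand and COL4A6 chrX:108439459-108439708 on the minus strand.
COL4A5: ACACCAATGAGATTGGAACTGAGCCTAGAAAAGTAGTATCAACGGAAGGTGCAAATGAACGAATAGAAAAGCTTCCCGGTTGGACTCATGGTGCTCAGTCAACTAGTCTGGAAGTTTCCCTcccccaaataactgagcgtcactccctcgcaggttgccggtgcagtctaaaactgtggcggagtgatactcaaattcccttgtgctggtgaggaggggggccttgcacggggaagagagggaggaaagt
COL4A6: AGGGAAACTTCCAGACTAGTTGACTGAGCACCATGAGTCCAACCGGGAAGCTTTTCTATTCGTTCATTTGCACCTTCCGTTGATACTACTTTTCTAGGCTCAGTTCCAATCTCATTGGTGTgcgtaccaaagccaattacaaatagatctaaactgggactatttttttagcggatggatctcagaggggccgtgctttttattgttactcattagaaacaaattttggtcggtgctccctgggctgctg
The letters CCAAT occur, on either strand, 2 times within the shared bases. They are present in 32.0% of the 35116 windows of this length in the table.

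The other type IV genes had few reads. COL4A3, a chain of kidney and lung basement membranes, was not called (log2 fold change 0.27, 95% interval -0.61 to 1.15) and had 12, 6 and 10 reads with EA and 14, 10 and 8 with DMSO. An antisense gene that overlaps COL4A3, AC097662.1, had 18, 14 and 24 reads with EA and 51, 35 and 44 with DMSO. COL4A4, its head-to-head neighbour, had 12, 6 and 3 reads with EA and 0, 0 and 2 with DMSO, a scaled ratio of 14.4 (95% exact counting interval 3.53 to 127). COL4A1 and COL4A2 encode the chains of nearly all basement membranes. COL4A1 had 2, 1 and 1 reads with EA and 1, 0 and 1 with DMSO, and COL4A2 had 1, 2 and 4 with EA and 13, 12 and 7 with DMSO. In this table all 37 genes named MT- are also at 0 reads, so few reads on a gene need not mean that the cells lack its RNA.

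Type XVIII collagen, a basement membrane collagen whose end piece is released as endostatin, was the remaining abundant chain that fell. COL18A1 (ENSG00000182871, chromosome 21) was read at 61.3, 56.0 and 52.1 CPM with EA and at 219, 246 and 234 CPM with DMSO. The groups were about 4-fold apart with little spread inside each, and the log2 fold change was -2.04 (SE 0.08, edgeR adjusted p = 2.05e-12). SLC19A1 overlaps it on the opposite strand and had 218 to 286 reads with EA and 1139 to 1238 with DMSO. COL15A1, its closest relative, had 1 read over the EA libraries and 1 over the DMSO libraries. COL26A1, a minor secreted collagen, averaged 0.392 ± 0.112 CPM with EA and 4.02 ± 0.624 CPM with DMSO (SD, n = 3 each), a log2 fold change of -3.34 (SE 0.28, edgeR adjusted p = 2.60e-08).

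**Figure D2:**
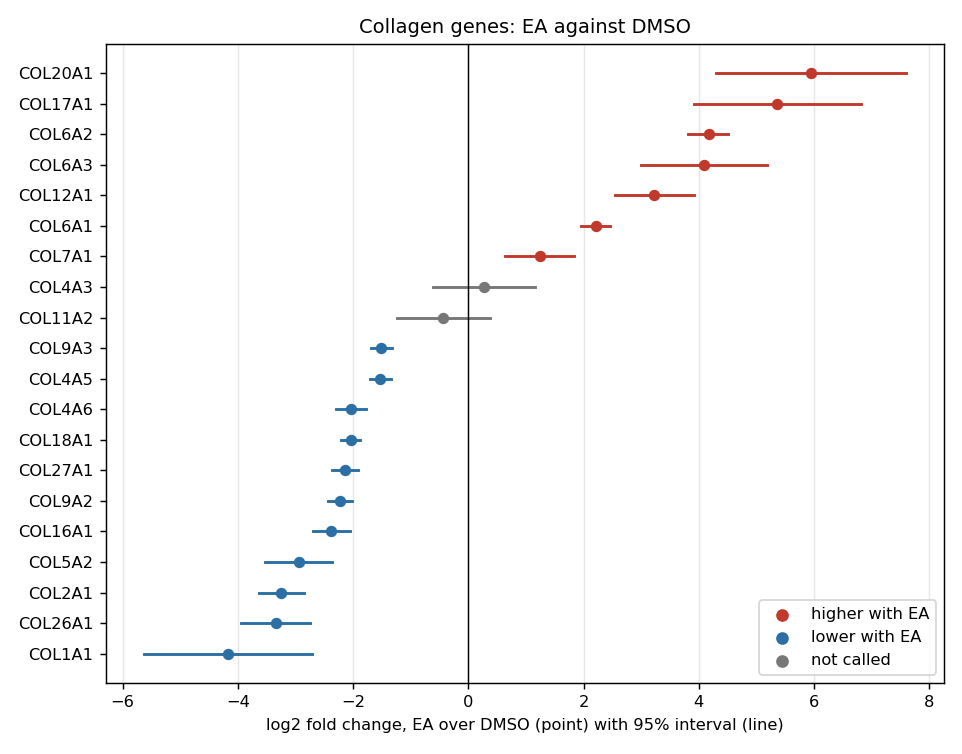
Log2 fold change of EA over DMSO for the 20 tested collagen genes (points) with 95% intervals (lines), ordered by size and coloured by call. The 11 genes that fell lie between -4.17 and -1.51, the 7 that rose between 1.24 and 5.95, and the lines of COL4A3 and COL11A2 cross 0.

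Type VI collagen forms beaded filaments close to the cell surface, and its 3 tested genes all rose, against 40.5% of all tested genes. COL6A1 (ENSG00000142156, chromosome 21) was read at 80.5, 67.6 and 60.7 CPM with EA and at 14.5, 16.9 and 13.7 CPM with DMSO, a log2 fold change of 2.21 (SE 0.11, edgeR adjusted p = 3.25e-10). COL6A2 (ENSG00000142173), its neighbour on the same strand, stood at 19.0, 17.6 and 21.1 CPM with EA and at 1.25, 1.09 and 0.865 CPM with DMSO. Its log2 fold change of 4.17 (SE 0.16, edgeR adjusted p = 2.84e-12) is a 17.9-fold difference. COL6A3, the longest chain of the molecule, had 16, 22 and 42 reads with EA and 3, 2 and 1 with DMSO, and passed the read filter through the EA libraries alone. All EA values lay above all DMSO values, and its log2 fold change was 4.09 (SE 0.51, edgeR adjusted p = 2.35e-06), or 3.63 without EA replicate 3, the library with the most COL6A3 reads. COL6A5 and COL6A6, chains that can take the place of COL6A3, had 7 and 6 reads over the EA libraries and 0 and 10 over the DMSO libraries. COL18A1 lies on the same chromosome as COL6A1 and COL6A2 and fell while these rose.

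The anchoring fibril gene and 1 of 4 transmembrane genes rose, the other 3 of which were below the read filter. COL7A1 (ENSG00000114270, chromosome 3), the chain of the anchoring fibrils of skin, was read at 59.2, 53.6 and 34.8 CPM with EA and at 16.4, 24.3 and 21.9 CPM with DMSO. EA replicate 3 was the lowest of its group but still above each DMSO library. The log2 fold change was 1.24 (SE 0.24, edgeR adjusted p = 0.00339), the smallest among the called members, and 1.41 without EA replicate 3. COL17A1, a membrane-spanning collagen of the hemidesmosome, had 47, 31 and 23 reads with EA and 0, 0 and 3 with DMSO. Its scaled ratio was 46.3 (95% exact counting interval 15.4 to 228, edgeR adjusted p = 6.61e-06). The fitted log2 fold change, 5.36, became 8.27 without DMSO replicate 3, which held all of the DMSO reads. The other membrane-spanning collagens, COL13A1, COL23A1 and COL25A1, had 0 or 1 read in each library.

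Of the genes with a window in the RefSeq table, COL7A1 and COL6A2 had the most reads among those that rose and COL27A1 among those that fell, and their promoters are given to set the elements side by side. Capitals mark TATAAA (the letters of the TATA box) and GGGCGG (those of the GC box), searched on both strands and at any position. The windows are the 250 bases before the start on GRCh38.p14, at chr21:46097862-46098111 on the plus strand for COL6A2, chr3:48595330-48595579 on the minus strand for COL7A1 and chr9:114155287-114155536 on the plus strand for COL27A1.
COL6A2: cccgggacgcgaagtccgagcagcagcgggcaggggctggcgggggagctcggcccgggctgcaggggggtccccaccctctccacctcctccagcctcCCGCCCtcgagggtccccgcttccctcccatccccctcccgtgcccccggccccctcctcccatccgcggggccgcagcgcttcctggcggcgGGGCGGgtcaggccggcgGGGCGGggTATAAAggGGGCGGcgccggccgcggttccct
COL7A1: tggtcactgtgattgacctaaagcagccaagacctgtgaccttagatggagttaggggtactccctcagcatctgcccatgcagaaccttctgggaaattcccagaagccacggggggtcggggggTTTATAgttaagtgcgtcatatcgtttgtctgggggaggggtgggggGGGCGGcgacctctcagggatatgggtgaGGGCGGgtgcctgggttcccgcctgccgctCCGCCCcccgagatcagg
COL27A1: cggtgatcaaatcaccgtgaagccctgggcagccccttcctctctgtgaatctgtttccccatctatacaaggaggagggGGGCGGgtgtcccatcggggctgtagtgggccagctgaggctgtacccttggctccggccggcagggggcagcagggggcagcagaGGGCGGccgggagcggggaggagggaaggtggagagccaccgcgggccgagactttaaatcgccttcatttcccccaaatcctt
COL6A2 holds TATAAA 1 time and GGGCGG 4 times, COL7A1 holds them 1 and 3 times, and COL27A1 has 0 matches to TATAAA and 2 to GGGCGG. In COL6A2 TATAAA reads on the gene's strand near the end of the window, close to the start. In COL7A1 it lies on the other strand, as TTTATA, near the middle of the window, far from the start. Of the 20 tested members, 14 had a window in RefSeq. TATAAA occurred in 3 of 5 members that rose and in 1 of 7 that fell, against 10.7% of all windows. GGGCGG occurred in 3 of 5 that rose and 5 of 7 that fell, against 42.6%, and CCAAT in 1 of 5 and 2 of 7. Those 2 were COL4A5 and COL4A6, and the 2 matches of COL4A5 lie in the bases that their windows share. TGANTCA, a letter pattern of AP-1 binding, was in 0 of 5 and 0 of 7, against 6.57% of all windows. A gene with more than 1 start was counted when any of its windows held the letters. A match is a description of the window only.

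The remaining 24 genes were below the read filter, with 192 reads over the EA libraries and 156 over the DMSO libraries in all. Their sums over the 6 libraries ran from 0 to 54 reads, and COL1A2, COL19A1 and COL25A1 had 0. The network collagens COL8A1, COL8A2 and COL10A1, known from vessels, cornea and growth cartilage, all belong here, with 0, 13 and 13 reads with EA and 2, 22 and 17 with DMSO. COL28A1 had 3 reads with EA and 8 with DMSO. These genes were not tested under the filter used. When no filter was applied, 41 members had reads and edgeR called 10 higher and 12 lower. Of all 32015 genes tested in that fit, 7513 were called higher and 7410 lower.

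**Figure D3:**
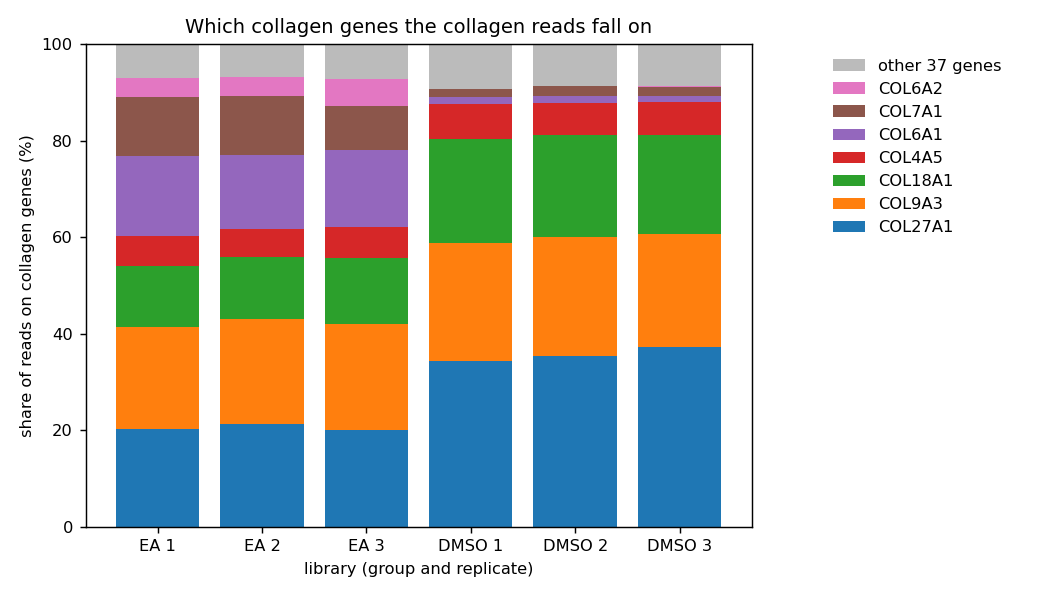
Share of the reads on the 44 collagen genes that each of 7 genes took, in percent, for each library (stacked bars), with the other 37 genes in grey. COL27A1, COL9A3 and COL18A1 fill 54.0% to 55.9% of the EA bars and 80.3% to 81.3% of the DMSO bars, and COL6A1, COL6A2 and COL7A1 fill 30.7% to 32.7% and 3.16% to 3.65%.

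The sum over all 44 genes was 485, 438 and 380 CPM in the EA libraries and 1017, 1157 and 1140 CPM in the DMSO libraries. The collagen sum was thus 2.54-fold lower in CPM with EA, and no EA library came near a DMSO library. The mixture of genes behind the sum also differed. Together, COL27A1, COL9A3 and COL18A1 took 55.2% ± 1.03 of collagen reads with EA and 80.9% ± 0.561 with DMSO (SD, n = 3 each). COL6A1, COL6A2 and COL7A1 took 31.7% ± 1.02 with EA and 3.34% ± 0.274 with DMSO. Type VI genes alone made up 20.9% ± 1.24 with EA and 1.48% ± 0.160 with DMSO. Summed over each class, fibrillar genes averaged 92.7 ± 12.4 CPM with EA and 410 ± 40.5 CPM with DMSO, and type VI genes 90.5 ± 8.99 CPM with EA and 16.3 ± 1.75 CPM with DMSO. The 2 classes were therefore at like levels of CPM in EA libraries, although exon lengths differ between genes.

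Levels per kilobase of exon are CPM divided by the length of a gene's exons in GENCODE 29, merged over all its transcripts. This length can exceed that of the transcript in the cells, and ranks and ratios between genes depend on it. On this scale COL9A3 had the highest level of all collagen genes in both groups, 19.4 ± 2.07 with EA and 55.0 ± 3.91 with DMSO (CPM per kb, SD, n = 3 each). COL27A1 followed in DMSO at 28.2 ± 2.81, close to COL18A1 at 27.3 ± 1.59, a difference smaller than the spread. In EA the second place went to COL6A1, at 13.0 ± 1.88 against 2.82 ± 0.312 in DMSO. COL18A1 at 6.62 ± 0.541 and COL27A1 at 6.38 ± 0.810 came next in EA and again did not differ beyond their spread. COL7A1 stood at 4.45 ± 1.15 with EA and 1.88 ± 0.367 with DMSO, rank 5 in EA and rank 8 in DMSO.

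**Figure D4:**
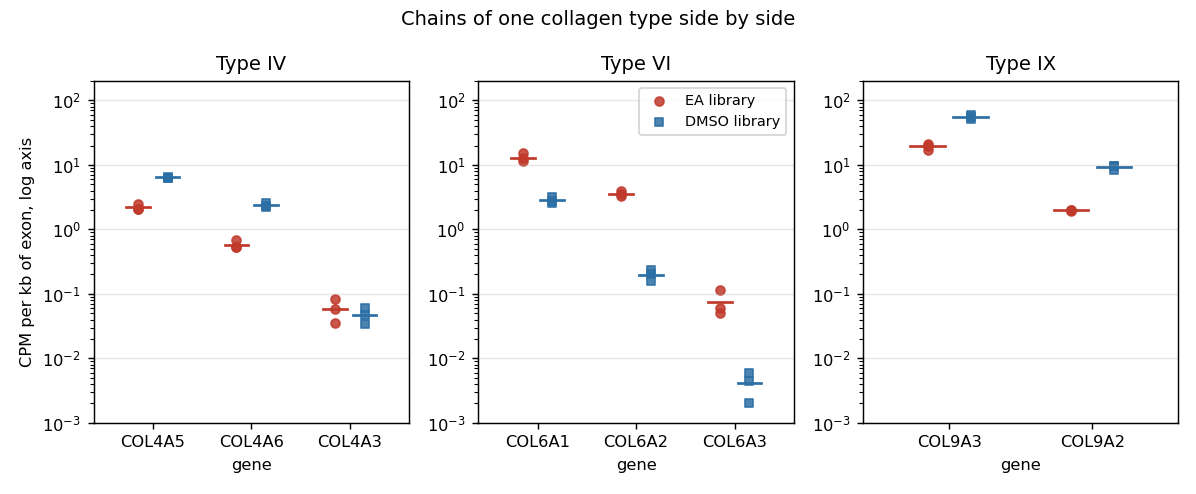
Levels of chains of type IV, type VI and type IX collagen, in CPM per kb of exon on a log axis, with 1 symbol per library (circles EA, squares DMSO) and lines at group means. Chains of one type are at unequal levels in both groups, and those of type VI lie closer together in EA, where COL6A1 is 2.90 to 4.28 times COL6A2, than in DMSO, where it is 11.8 to 15.99 times.

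Chains that join in one molecule were at unequal levels, and the imbalance differed between the groups. On the scale of CPM per kb, COL6A1 was 4.28, 3.87 and 2.90 times as high as COL6A2 in the EA libraries and 11.8, 15.7 and 15.99 times as high in the DMSO libraries. COL6A1 exceeded COL6A3 by 297, 213 and 100 times with EA and by 457, 715 and 1282 times with DMSO, where COL6A3 rested on 1 to 3 reads per library. COL4A5 exceeded COL4A6 by 3.70, 3.95 and 3.94 times with EA and by 2.48, 2.71 and 2.93 times with DMSO. COL9A3 exceeded COL9A2 by 10.8, 10.3 and 8.54 times with EA and by 6.12, 6.15 and 5.73 times with DMSO. In all, 6 ratios were computed, the others setting COL27A1 against COL6A1 and COL7A1. The COL27A1 ratios set a gene that fell against genes that rose, so that choice fixed their separation in advance. Taken singly, 82.9% of all tested genes had EA and DMSO values that did not overlap, and ratios of other genes were not computed. In each of the 6 the EA ratios lay wholly on one side of the DMSO ratios. The exact permutation test gave p = 0.1 (two-sided) for each, which is the smallest that 3 against 3 allows, so none can pass 0.05, before or after adjustment over the 6. Type VI ratios were thus nearer to 1 with EA, and those of types IV and IX farther from it.

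Collagen genes hold much exon sequence, with 3156 to 19633 bases in the tested members when the exons of all transcripts of a gene are merged. Of the 20, 13 were in the longest of 4 equal length classes of all tested genes (6953 bases and over). In that class the median log2 fold change of all genes was 0.23, with 33.8% called lower and 51.0% higher. The class median covers 3908 genes, while the members' median of -1.52 covers all 20, inside and outside the class. The part of length in the members' changes was not tested.

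The genes that make, export, crosslink, bind and cut collagen were read from lists. Beside the counts that follow stand the shares over all tested genes, 40.5% called higher and 40.5% called lower. In hydroxylation and glycosylation, 13 of 14 genes were tested, 3 rose, 7 fell and 3 were not called (median log2 fold change -0.49, against 0 for all tested genes). PLOD2, which hydroxylates lysines for crosslinks, averaged 1400 ± 132 CPM with EA and 223 ± 18.6 CPM with DMSO (SD, n = 3 each), a log2 fold change of 2.65 (SE 0.09). P3H2, a prolyl 3-hydroxylase with a preference for basement membrane collagen, rose by 4.25 on the log2 scale (SE 0.38), to 2.41 ± 0.589 CPM with EA against 0.122 ± 0.0404 CPM with DMSO. It passed the read filter through the EA libraries alone, so the count of 3 that rose was partly set by the filter. Its relatives went the other way, with log2 fold changes of -2.85 for P3H3 and -1.54 for CRTAP, the partner of P3H1. Among prolyl 4-hydroxylase subunit genes, P4HA1 was not called, at 74.5 ± 2.61 CPM with EA and 78.8 ± 6.20 CPM with DMSO. P4HA2 rose, at 144 ± 9.04 CPM with EA and 74.6 ± 2.21 CPM with DMSO (log2 fold change 0.95, SE 0.07). P4HB fell, with a log2 fold change of -0.49 (SE 0.07).

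In folding and export, 13 of 15 tested genes fell, against 40.5% of all tested genes, 1 rose and 1 was not called (median log2 fold change -0.69). SERPINH1, the collagen-specific chaperone HSP47, averaged 19.5 ± 2.06 CPM with EA and 108 ± 6.87 CPM with DMSO (SD, n = 3 each), a log2 fold change of -2.46 (SE 0.09, edgeR adjusted p = 1.45e-12). The prolyl isomerases FKBP7 and PPIB had log2 fold changes of -3.03 and -1.58, and SEC13, a coat protein of export vesicles, one of -1.80. The higher gene was MIA3, which encodes the cargo receptor TANGO1 for bulky procollagen, at 155 ± 8.23 CPM with EA and 94.7 ± 7.12 CPM with DMSO (log2 fold change 0.71, SE 0.07). MIA3, P4HA1, P4HA2 and P4HB were named after their values were seen.

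**Figure D5:**
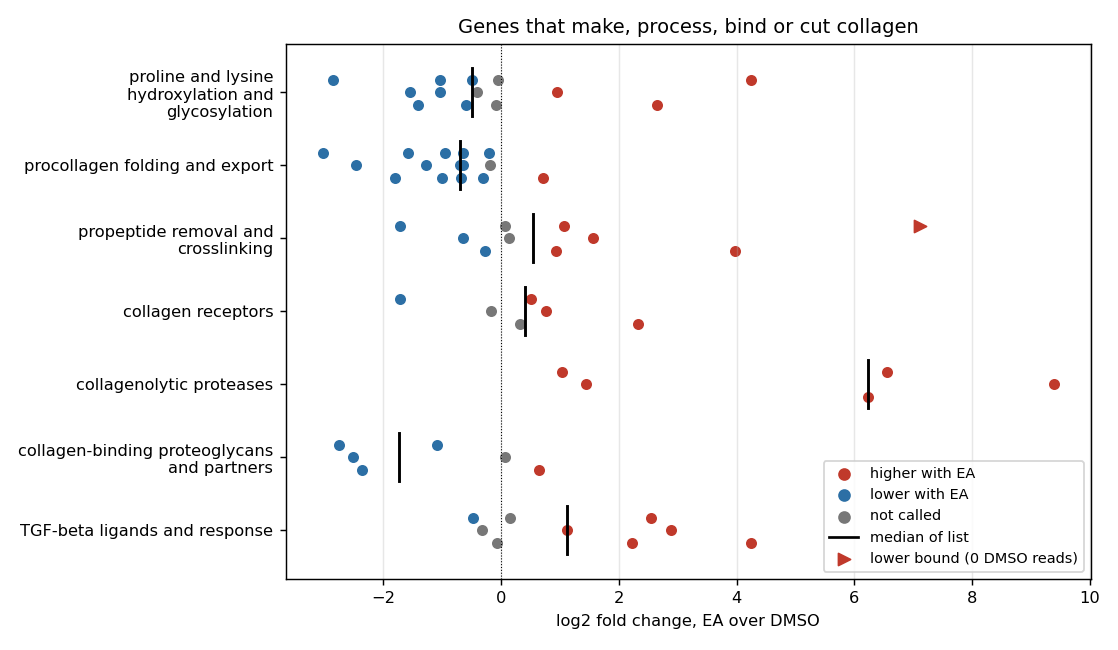
Log2 fold change of EA over DMSO for the tested genes of 7 lists, with 1 symbol per gene coloured by call and black bars at list medians; the triangle is PXDN at its lower bound. Folding and export genes lie almost all left of 0, the 5 collagenolytic proteases all right of it, and the other lists spread to both sides.

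In propeptide removal and crosslinking, 10 of 14 genes were tested, and 5 rose, 3 fell and 2 were not called (median log2 fold change 0.54). PXDN, which crosslinks type IV collagen, had 103, 112 and 86 reads with EA and 0 in each DMSO library, at least 138-fold higher with EA against a floor of 3 reads over the DMSO group. It passed the read filter through the EA libraries alone, so the count and median of this list were partly set by the filter. LOXL2, a lysyl oxidase active on type IV collagen, averaged 39.2 ± 6.22 CPM with EA and 2.48 ± 0.222 CPM with DMSO (log2 fold change 3.98, SE 0.14). ADAMTS2, which trims fibrillar procollagens, rose by 1.07 on the log2 scale, and PCOLCE2, an enhancer of that trimming, fell by 1.71. Of 10 receptors, 6 were tested, 3 rose, 1 fell and 2 were not called (median log2 fold change 0.42). DDR2, ITGA2 and DDR1 had log2 fold changes of 2.32, 0.76 and 0.51, and ITGA10 one of -1.72.

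Of 7 proteases able to cut collagen, 5 were tested and these 5 rose, against 40.5% of all tested genes (median log2 fold change 6.23). MMP1, the interstitial collagenase, averaged 266 ± 92.4 CPM with EA and 0.386 ± 0.189 CPM with DMSO (SD, n = 3 each, log2 fold change 9.39, SE 0.50). MMP2 and MMP14 had log2 fold changes of 1.44 and 1.03. The other members that rose were MMP9 and MMP13, named after their values were seen. Like MMP1, with 9, 5 and 15 reads with DMSO, they passed the filter through the EA libraries alone. The count and median of this list were therefore partly set by the filter. MMP9 had 10, 14 and 55 reads with EA and 0, 0 and 1 with DMSO, a scaled ratio of 109 (95% exact counting interval 19.0 to 4350). EA replicate 3 held most of its reads. The fitted log2 fold change of MMP9, 6.23, is also the list's median, and both were 5.15 without EA replicate 3 and 7.88 without DMSO replicate 3. MMP13 had 19, 45 and 34 reads with EA and 0, 0 and 1 with DMSO, a scaled ratio of 135 (23.6 to 5380), and its fitted value of 6.55 was 8.20 without DMSO replicate 3. Of 9 matrix partners, 6 were tested, and 4 fell, 1 rose and 1 was not called (median log2 fold change -1.72). Those that fell were TGFBI (-2.75), the secreted collagen chaperone SPARC (-2.52), the basement membrane linker NID1 (-2.36) and the heparan sulfate proteoglycan HSPG2 (-1.09), as log2 fold changes. BGN, named for the same reason, was the member that rose, by 0.65 (SE 0.26, edgeR adjusted p = 0.0331), and the call was lost without EA replicate 1, EA replicate 3, DMSO replicate 1 or DMSO replicate 3, with DESeq2, with no filter and against a fold of 1.5. Of 10 genes of TGF-beta signalling, a known inducer of matrix genes, 9 were tested, 5 rose, 1 fell and 3 were not called (median log2 fold change 1.12). LTBP2, LTBP1 and TGFB1 had log2 fold changes of 2.88, 2.54 and 2.22.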

How the data were processed

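RNA from 3 EA and 3 DMSO samples of HepG2 cells was sequenced as paired reads of 150 bases, per the labels' protocols. The deposited table holds unnormalised read counts for each gene. Build hg19 is named in the submitters' processing notes, with HTSeq 0.6.1, HISAT, cutadapt 1.9.1 and bcl2fastq 2.17.1.14 as tools. Annotation, strand setting and filters: not given in the sources used. Each count column was matched to its sample by name.

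Genes passing filterByExpr (15648) were scaled by TMM and tested with edgeR 4.0.16 (R 4.3.3, quasi-likelihood F test, robust, Benjamini-Hochberg adjustment over all of them; common biological coefficient of variation 7.96%). CPM use TMM-scaled library sizes, and the SE is the log2 fold change over the square root of F. The test was checked on simulated counts in which far fewer genes changed than were called here. That check therefore does not cover data in which most genes change. Exon lengths (exons of all transcripts of a gene merged) and overlaps came from GENCODE 29 on GRCh38, promoter sequences from RefSeq. Where a group had 0 reads, a fold is a bound that takes 3 reads for that group's sum; at 1 to 3 reads a ratio carries 95% exact intervals, and both cover counting error only. MIA2 of the export list was not matched and is not analysed here.

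The members, lists and tests were chosen with earlier results of these data known. All collagen genes are accounted for; from each list the text names up to 4 called genes with the largest changes and a mean CPM of at least 1, and others as chosen after their values were seen. Some list genes are not reported here. Alternatives were DESeq2 1.42.0, scaling by upper quartile, by RLE or by library size alone, a filter of 1 CPM in 3 libraries or none, a minimum fold of 1.5, thinning to equal depth, a replicate block and leaving out each library.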

Additional observations from a re-analysis of the deposited data

How the results depend on the processing

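The count of collagen genes called was 7 higher and 11 lower in the edgeR fit of the report, also with DESeq2, RLE, upper-quartile or library-size scaling, a minimum fold of 1.5 and the replicate block. It was 10 and 12 of 41 with no filter, 6 and 10 of 17 with 1 CPM in 3 libraries, and 7 and 10 of 19 after thinning to equal depth. Over all genes these fits called 7513 higher and 7410 lower of 32015, 5770 and 5852 of 13894, and 6080 and 5988 of 15023. Leaving out 1 library gave 7 to 8 collagen genes higher and 11 to 12 lower. Over the 20 genes and these alternatives, 294 fold changes kept their direction and side of the threshold. The exception was COL4A3, not called, which had -0.04 without EA replicate 1 against 0.27, and -0.04 to 0.53 over the libraries left out; the cause was not tested. Against a fold of 1.5, 4179 of all genes were lower, not 6336, since that test asks for a larger change. Without COL27A1, the member with the most reads, the summed level was 345 CPM with EA and 709.9 CPM with DMSO. Over the alternatives run on the lists, receptors had 3 to 4 genes higher and 1 to 2 lower (4 and 2 with the replicate block), folding and export 12 to 14 lower, propeptide removal and crosslinking 4 to 5 higher and 2 to 3 lower, hydroxylation and glycosylation 7 to 8 lower, proteases 4 to 5 higher and matrix partners 0 to 1 higher. For single list genes, leaving P4HA2 and P4HB aside, alternatives chosen after seeing the data turned no direction. Beside BGN, given in the report, P4HA1 was called lower with no filter (-0.21) and DDR1 lost its call against a fold of 1.5. MMP9 had 7.39 and MMP13 5.87 after thinning, and the median of the proteases was 4.03 with 1 CPM in 3 libraries, where 4 were tested. Same-numbered EA and DMSO libraries deviated from their group means with correlations of -0.123, 0.037 and -0.008 over genes, so the numbers were not taken to pair the samples. The 24 members below the read filter of the report were left untested by that filter, and 21 of them had reads and were tested without it.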
